A study of Mus musculus with 13 samples.

Results

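Solute carriers that move ions and metals across membranes were followed through the 5 sample groups of a study of the mouse stomach. The genes were those whose symbols begin with Slc4a, Slc8a, Slc9a, Slc12a, Slc26a, Slc30a or Slc39a, leaving out Slc9a2, Slc9a4, Slc26a7 and Slc26a9, and each was read from its brightest probeset that carries 1 gene symbol. The rule uses names and no measured differences, but it was set with earlier results of these data known. It gave 59 of the 18820 genes on the array: 10 Slc4a, 3 Slc8a, 7 Slc9a, 8 Slc12a, 7 Slc26a, 10 Slc30a and 14 Slc39a genes. Of these, 56 encode carriers. The other 3 share a prefix but encode partner proteins: Slc9a3r1 and Slc9a3r2 are the scaffolds NHERF1 and NHERF2, and Slc4a1ap encodes kanadaptin. Further probesets that name Slc30a1, Slc26a10 or Slc26a1 together with another gene (3 in all) were not used.

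RNA of 13 samples was hybridised to Affymetrix arrays, 1 sample per array, in 2 experiments. The sorted cells came from mice with an EGFP-ires-CreERT2 cassette at the start of Tnfrsf19 (Troy), so the reporter follows the regulatory sequences of Troy and marks only Troy-expressing cells. The first experiment holds Troy-positive chief cells (3 arrays, a to c), Troy-positive parietal cells (2 arrays, a and b) and whole glands of the gastric corpus (2 arrays, a and b), for which the labels give no genotype. Glands of 10 mice were pooled for an array, freed with EDTA and trypsinized, and about 100000 cells were sorted, whereas whole glands were processed directly. Handling and cell type therefore cannot be told apart in comparisons with glands. The second experiment holds organoids grown from single Troy-positive chief cells, in EGFNWR medium (EGF, Gastrin, FGF10, Noggin, Wnt3a and Rspondin; 3 arrays) or in ER medium (EGF and Rspondin only; 3 arrays). The labels give no ages and leave unsaid whether separate animals supplied the organoids, so p-values measure the spread between these arrays, part of which may be technical. One protocol text speaks of intestines, while every tissue label says gastric corpus.

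Ion carriers of epithelia work in pairs of membranes. In acid-secreting parietal cells, a basolateral exchanger of chloride for bicarbonate feeds chloride to the cell while the proton pump works at the other side, and sodium/proton exchangers and cation-chloride cotransporters hold cell pH and volume. Zinc is moved by 2 opposed families: Slc30a proteins (ZnT) take zinc out of the cytosol, into vesicles or out of the cell, and Slc39a proteins (ZIP) bring it into the cytosol. In secretory cells much of this traffic loads zinc onto enzymes in the Golgi and the early secretory pathway.

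Promoter sequence is shown for zinc carriers because 6 of the members that were lower in ER than in EGFNWR medium are zinc carriers, as were the zinc-binding metallothioneins Mt1 and Mt2. RefSeq promoter windows (GRCm38.p6; 250 bases before to 50 after a start site) were found for 49 of the 59 genes. They were searched on both strands for the metal response element core, TGCACNC or TGCGCNC, which the zinc-sensing factor MTF1 binds. The stretches below run from 100 bases before to 50 after the start, 5′ to 3′ on the gene's strand, with matches to the core in capitals. Slc30a5, Slc39a13 and Slc39a8 fell in ER medium and have a match, and Slc39a11 rose there and has a match too. Slc39a7 and Slc39a10 also fell and have none, Slc39a14 has no entry in the table, and Slc30a1, the plasma membrane zinc exporter, has 2 matches and passed no test.
Slc30a5, chr13:100833378-100833527, minus strand: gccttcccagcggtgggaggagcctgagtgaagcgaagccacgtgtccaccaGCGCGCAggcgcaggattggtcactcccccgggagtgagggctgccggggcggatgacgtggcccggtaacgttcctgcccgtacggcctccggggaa
Slc39a13, chr2:91070266-91070415, minus strand: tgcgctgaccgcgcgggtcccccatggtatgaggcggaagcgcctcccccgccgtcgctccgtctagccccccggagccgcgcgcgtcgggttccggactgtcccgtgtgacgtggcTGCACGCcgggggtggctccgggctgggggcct
Slc39a8 (the second of its 2 windows), chr3:135825557-135825706, plus strand: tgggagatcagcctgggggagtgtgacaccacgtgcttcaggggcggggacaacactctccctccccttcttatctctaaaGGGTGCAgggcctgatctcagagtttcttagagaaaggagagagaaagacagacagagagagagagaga
Slc39a7, chr17:34031641-34031790, minus strand: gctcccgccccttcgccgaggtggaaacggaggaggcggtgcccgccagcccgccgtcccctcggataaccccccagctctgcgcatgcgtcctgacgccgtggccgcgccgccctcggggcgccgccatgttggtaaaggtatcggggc
Slc30a1, chr1:191906681-191906830, plus strand: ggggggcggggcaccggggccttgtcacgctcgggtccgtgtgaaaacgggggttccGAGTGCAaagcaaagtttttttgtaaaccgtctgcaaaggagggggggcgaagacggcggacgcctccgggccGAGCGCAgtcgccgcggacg

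The core was found in a window of 22 of the 49 genes (44.9%), against 28.2% of all 27025 genes with a window and 25.7% of all 32851 windows. By family it was present in 6 of 9 Slc30a, 5 of 11 Slc39a, 5 of 7 Slc4a, 3 of 7 Slc9a, 2 of 7 Slc12a, 1 of 3 Slc8a and 0 of 5 Slc26a genes. The members' windows are also richer in G and C, with a median of 61.0% against 52.7% over all windows. The part of base composition in the higher share was not tested. In Slc30a10 a pair of matches overlap. Of 2 other motifs searched, the estrogen-related receptor element TCAAGGTCA was in 0 of the 49 (0.466% of all genes) and the Mist1 E-box CATATG in 2, Slc26a3 and Slc39a11 (4.08%, against 4.48% of all genes). A match is a run of letters and is not shown to be a site that a factor uses.

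Values are log2 intensities, so a difference of 1 is a doubling, and levels are given for arrays a, b and c in that order. Array medians lay between 5.01 and 5.3, and the median of these, 5.15, serves as a mark: for signal below it no excess over background was shown, and the size of differences there is uncertain. Of the 59 genes, 28 were above the array median on all 13 arrays, 19 on none and 12 on some. The 19 include all 3 Slc8a sodium/calcium exchangers, Slc12a1 and Slc12a3 (the kidney's NKCC2 and NCC), Slc26a3, Slc26a4 and Slc26a5, and Slc30a8, the zinc carrier of insulin granules. Their levels lay between 3.22 and 5.16. Within a group, 35 of the 59 genes were above the array median on all chief arrays, 36 on the parietal arrays, 30 on the gland arrays, 35 in EGFNWR and 34 in ER medium. Of all genes, 48.9%, 51.3%, 52.2%, 53.7% and 52.8% were above it in these groups, in the same order. Mean levels were highest in parietal cells for 21 of the 59, in EGFNWR organoids for 16, in ER organoids for 10, in chief cells for 7 and in glands for 5. No such count was made over all genes, so it is not read as a trait of these families. The count includes the 19 members that never exceeded the array medians, whose order between groups is uncertain.

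**Figure D1:**
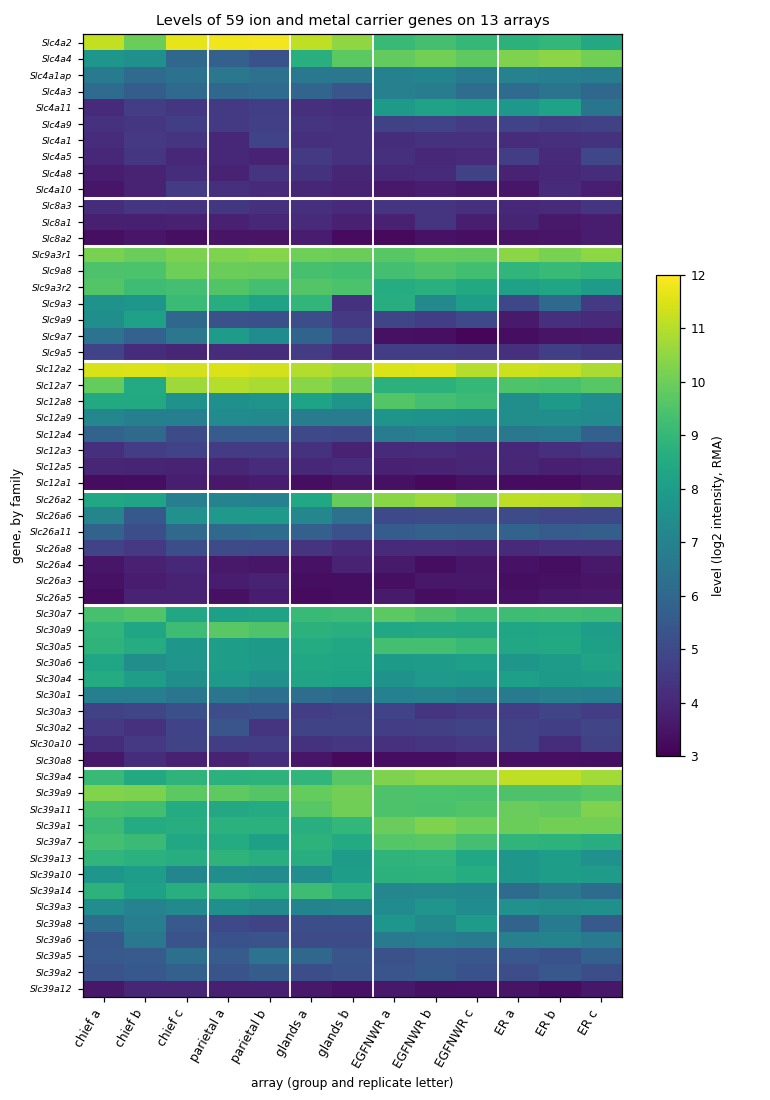
Levels (log2 intensity, colour) of the 59 genes (rows, by family and then by mean level) on the 13 arrays (columns). Rows near the bottom of each family are dark on all arrays, and Slc4a4, Slc4a11, Slc9a7, Slc9a9 and Slc26a2 change colour between groups.

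Several arrays of the first experiment stand apart. Chief c correlated with the parietal arrays at 0.979 and 0.982 over all genes, above its 0.95 and 0.961 with the other chief arrays. Its chief cell markers Pga5 and Bhlha15 read 8.90 and 8.80, below 10.47 to 10.79 and 10.18 to 10.26 on the other chief arrays. Each of the 6 measured chief cell markers was still higher on all chief arrays, chief c included, than on the parietal arrays. Proton pump subunit Atp4a read 12.62 to 13.22 on chief arrays and 13.08 to 13.16 on parietal arrays, so this parietal marker was bright in both sorts. All 6 parietal markers had lower means in chief than in parietal cells (median -1.05). For 3 of the 6 the arrays did not overlap, and 0 passed the adjusted threshold. Chief b carried squamous keratin Krt5 at 11.85, against 6.37 and 4.25 on the other chief arrays, and chief a the pit cell mucin Muc5ac at 12.01, against 9.84 and 9.87. No endothelial marker (0 of 3) or erythroid marker (0 of 3 measured) was above the array median on all arrays of any group. Of 5 leukocyte markers 1 was above it in every group. In parietal cells and in glands, so were 1 of 5 markers of stroma and muscle and 1 of 4 of neurons and glia. In such bulk RNA, fewer cells of a type and less RNA per cell cannot be told apart.

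Chief and parietal cells did not differ in any of the 59 genes at an adjusted p of 0.05 (limma, Benjamini-Hochberg over all 18820 genes): 0 members passed, beside 0% of all genes. At an unadjusted p under 0.05, 6 members passed, 4 higher and 2 lower in chief cells, which is 10.2% beside 12.1% of all genes. The members' median difference was -0.08, beside -0.04 over all genes. Chief and parietal arrays did not overlap for 14 of the 59, nor for 5666 of all 18820 genes, so a lack of overlap is common here. Leaving out chief c gave 4 members higher in chief cells (Slc9a9, Slc4a4, Slc39a8 and Slc30a7), beside 4.84% of all genes, and 0 lower, beside 2.17%. Chief c was singled out by its likeness to the parietal arrays, so leaving it out favours larger differences from them. Adjusted p-values without chief c, here and below, are therefore descriptive only. Chief cells against glands also gave 0 members, beside 0.478% of all genes, and 10 at an unadjusted p under 0.05 (7 higher, 3 lower), beside 15% of all genes, with a median of 0.13 (0.05 over all genes). Without chief c Slc9a9 passed in that comparison, higher in chief cells, beside 0.569% of all genes higher and 0.414% lower. Without glands a Slc9a3 did, also higher, beside 0.234% higher and 1.04% lower.

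Parietal cells against glands gave 1 member higher in parietal cells, Slc9a7, beside 0.228% of all genes, and 1 lower, Slc4a4, beside 1.39%. The median was 0.24 (0.13 over all genes), and 12 members passed at an unadjusted p under 0.05, or 20.3% beside 20.9% of all genes. Each of these calls was lost without chief a, parietal a, parietal b or glands b, with adjusted p-values in limma between 0.0509 and 0.326. With every array normalized again to the same quantiles, both had an adjusted p of 0.0547. Without chief c calls rose over all genes, to 1.91% higher and 5.56% lower in parietal cells, and the members then had 1 higher and 4 lower, Slc26a2, Slc30a7 and Slc39a11 being added. Markers of other cell types moved in both comparisons with glands. All 4 tuft cell markers were lower in parietal cells (median -2.20) and in chief cells (median -2.22), as were 2 of 6 enteroendocrine markers in each. All 4 pit cell markers were lower at an unadjusted p under 0.05, with medians of -2.41 and -2.10, and 0 of them passed the adjusted threshold. The part of these cell types in the differences from glands was not tested.

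ER against EGFNWR organoids gave 16 of the 59: 5 rose in ER medium, beside 9.13% of all genes, and 11 fell, beside 10.1%. As shares of the 59 these are 8.47% and 18.6%. The median was -0.02, against 0.01 over all genes. The 5 that rose were Slc12a7, Slc39a4, Slc9a3r1, Slc26a2 and Slc39a11, and those that fell were Slc9a3, Slc12a8, Slc39a8, Slc39a13, Slc30a5, Slc39a14, Slc9a9, Slc39a10, Slc39a7, Slc9a3r2 and Slc9a8. The arrays of the media did not overlap for 20 of the 59, these 16 among them, nor for 36% of all genes. Leaving out EGFNWR a gave 1 higher and 9 lower, beside 4.63% and 5.46% of all genes, and leaving out ER a the same numbers, beside 4.88% and 5.48%: Slc9a3r1, Slc26a2, Slc39a4, Slc39a11, Slc9a8 and Slc9a3r2 were lost in both cases, and Slc12a7 was the only gene left among those that rose. A fit of all 13 arrays gave 1 higher and 6 lower, beside 3.6% and 5.46% of all genes. It ended the calls of Slc12a7, Slc26a2, Slc39a4, Slc39a7, Slc39a11, Slc9a3, Slc9a3r2, Slc9a8 and Slc9a9, with adjusted p-values of 0.0564 to 0.534 in limma.

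EGFNWR organoids were also set against sorted chief cells, the cell type they were grown from. No label links an organoid array to a chief array. The comparison gave 25 members: 14 higher in organoids, beside 24.1% of all genes, and 11 lower, beside 16.2%. As shares of the 59 these are 23.7% and 18.6%, and the median was -0.05 (-0.07 over all genes). The experiments were run separately, so culture and experiment cannot be told apart here. Centring each array on its median moved the all-gene median from -0.07 to 0.07. The split of calls then became 16 higher and 8 lower among members, and 5310 higher and 1854 lower among all genes, in place of 4535 and 3052. A fit of only the 6 arrays of these groups gave 18 members, beside 29.5% of all genes, and ended the calls of Slc4a3, Slc4a1ap, Slc9a3r1, Slc12a3, Slc30a5, Slc30a8 and Slc39a6. Comparisons that share arrays (EGFNWR in both organoid comparisons, chief cells in 3) are not independent, and values are set side by side only.

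**Figure D2:**
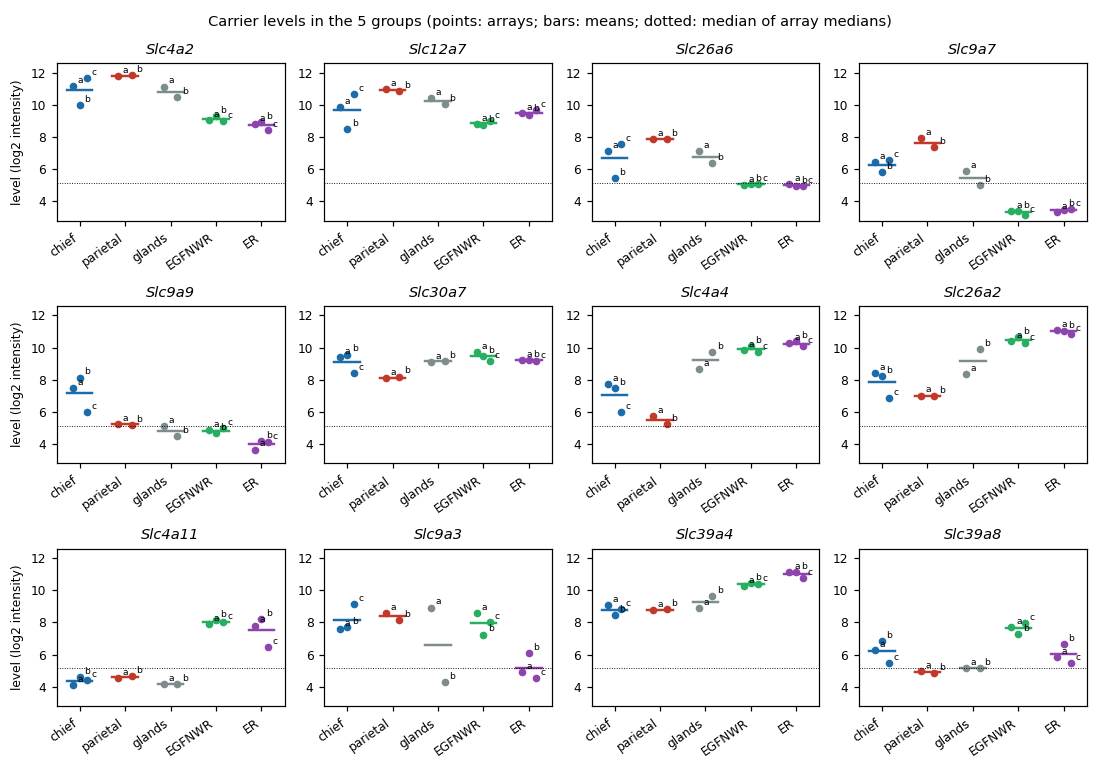
Levels (log2 intensity) of 12 carriers in the 5 groups, with a point for each array (lettered), a bar for the group mean and a dotted line at the median of the array medians (5.15). Slc4a11 lies above the line only in organoids, Slc9a7 lies below it on all organoid arrays, and the glands arrays of Slc9a3 lie at 8.93 and 4.31.

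Among the carriers of bicarbonate and chloride, Slc4a4 and Slc4a2 were the brightest of their family and had opposite patterns over the groups. Slc4a4 encodes NBCe1, which brings sodium and bicarbonate into epithelial cells together. It read 7.72, 7.50 and 6.00 in chief cells, 5.75 and 5.26 in parietal cells, and 8.68 and 9.72 in glands. Organoids read 9.84, 10.09 and 9.75 in EGFNWR and 10.26, 10.42 and 10.07 in ER medium. Parietal cells were thus the lowest group, chief c was the chief array nearest to them, and both glands arrays lay above all sorted cells. The parietal against glands difference was -3.70 (SE 0.58; 13.0-fold; limma adjusted p = 0.0353). Chief minus parietal was 1.57 (SE 0.53, adjusted p = 0.357 in limma), and 2.10 (SE 0.36, adjusted p = 0.0205) without chief c. Chief minus glands was -2.13 (SE 0.53, adjusted p = 0.154 in limma), with an adjusted p of 0.0187 in a fit of all 13 arrays. EGFNWR organoids exceeded chief cells by 2.82 (SE 0.39, adjusted p = 0.00019 in limma), and the ER minus EGFNWR difference of 0.36 (SE 0.13) did not pass (adjusted p = 0.104), ER c and EGFNWR b overlapping. With the replicate letter as a paired block it did pass, at the same 0.36 (SE 0.09, adjusted p = 0.031 in limma).

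Slc4a2 encodes AE2, the exchanger that loads parietal cells with chloride. Its levels were 11.17, 9.98 and 11.65 in chief cells, 11.81 and 11.83 in parietal cells and 11.14 and 10.50 in glands, then 9.07, 9.33 and 8.99 in EGFNWR and 8.78, 8.96 and 8.43 in ER organoids. Both parietal arrays lay above every other array, and every organoid array lay below every array of the first experiment. EGFNWR organoids were lower than chief cells by 3.49-fold (-1.80, SE 0.34; limma adjusted p = 0.00146). Chief minus parietal (-0.89, SE 0.45, adjusted p = 0.462 in limma) and parietal minus glands (1.00, SE 0.50, adjusted p = 0.289) did not pass. ER minus EGFNWR was -0.41 (SE 0.16, adjusted p = 0.12 in limma), and passed with the replicate letter as a paired block (SE 0.10, adjusted p = 0.0292). The proton pump subunits Atp4a and Atp4b differed by -7.04 and -8.52 between EGFNWR organoids and chief cells, where 5 of the 6 parietal markers fell. The summed level of these 6 was 13.71 to 14.45 in chief cells and 8.15 to 9.17 in EGFNWR organoids. The part of parietal RNA in the chief sort in the Slc4a2 difference was not tested.

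Slc4a11, a family member known from the corneal endothelium, was at 4.11 to 4.68 on all 7 arrays of the first experiment, below the array medians. It read 7.90, 8.18 and 8.03 in EGFNWR and 7.81, 8.23 and 6.50 in ER organoids. All 6 organoid arrays lay above all arrays of the first experiment, and ER c was the lowest of the 6. EGFNWR minus chief was 3.65 (SE 0.34; limma adjusted p = 1.24e-05), a size that is uncertain with the chief arrays below the medians, and ER minus EGFNWR was -0.52 (SE 0.39, adjusted p = 0.433). Slc4a3, the exchanger AE3, was higher in EGFNWR organoids than in chief cells by 0.69 (SE 0.22, adjusted p = 0.0255 in limma), and Slc4a1ap by 0.53 (SE 0.15, adjusted p = 0.0164). Both calls were lost without chief b, EGFNWR a or EGFNWR b, with adjusted p-values between 0.0555 and 0.103. The other 5 Slc4a genes, Slc4a1 (the red cell exchanger), Slc4a5, Slc4a8, Slc4a9 and Slc4a10, stayed below the array medians on every array.

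The Slc26a family exchanges anions, and its 2 bright members had opposite patterns as well. Slc26a2, a sulfate carrier needed to sulfate secreted glycans, read 8.40, 8.25 and 6.84 in chief cells, 7.02 and 6.96 in parietal cells and 8.37 and 9.91 in glands. EGFNWR organoids read 10.40, 10.67 and 10.27, and ER organoids 11.09, 11.06 and 10.86. The 6 organoid arrays were the 6 highest, with all ER arrays above all EGFNWR arrays. It rose by 2.62 (SE 0.41, adjusted p = 0.000417 in limma) in EGFNWR organoids over chief cells and by a further 0.56 (SE 0.13, adjusted p = 0.0222) in ER medium. The second call was lost without EGFNWR a, EGFNWR c, ER a or ER b, with differences of 0.47 to 0.53 and adjusted p-values of 0.0558 to 0.0847. Parietal minus glands was -2.15 (SE 0.61, adjusted p = 0.116 in limma). Its adjusted p was 0.0371 without chief c and 0.0174 in the fit of 13 arrays.

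Slc26a6, an exchanger of chloride for bicarbonate and oxalate, read 7.11, 5.47 and 7.56 in chief cells, 7.88 and 7.86 in parietal cells and 7.15 and 6.40 in glands. Organoids read 5.03, 5.10 and 5.05 in EGFNWR and 5.10, 4.93 and 4.94 in ER medium. Parietal arrays were the highest, and all organoid arrays lay near the array medians. EGFNWR minus chief was -1.65 (SE 0.40, adjusted p = 0.00688 in limma), and chief minus parietal was -1.16 (SE 0.56, adjusted p = 0.446). All EGFNWR arrays lay just below the array medians, so the size of the first difference is uncertain. Slc26a8 was lower in EGFNWR organoids than in chief cells by 0.73 on the log2 scale (-0.73, SE 0.16, adjusted p = 0.00315), at levels below the array medians. Slc26a11 lay between 5.17 and 6.17 and passed no test.

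Among sodium/proton exchangers, the organelle forms Slc9a7 and Slc9a9 had chief and parietal arrays that did not overlap, and Slc9a3 differed between media. Slc9a7 encodes NHE7, an exchanger of the trans-Golgi network. It read 7.93 and 7.37 in parietal cells, 6.42, 5.83 and 6.57 in chief cells and 5.90 and 5.02 in glands. On the 6 organoid arrays it lay between 3.17 and 3.55. Parietal arrays were above all others, and the organoid arrays were all below the array medians, so the size of that drop is uncertain. Parietal minus glands was 2.19 (SE 0.37; limma adjusted p = 0.0401), and EGFNWR minus chief was -2.95 (SE 0.25, adjusted p = 6.39e-06). Chief minus parietal was -1.38 (SE 0.34, adjusted p = 0.348 in limma), with no overlap of the arrays. Its adjusted p was 0.0453 in the fit of 13 arrays.

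Slc9a9 encodes NHE9, an exchanger of endosomes. It read 7.49, 8.14 and 5.99 in chief cells, 5.23 and 5.21 in parietal cells, 5.13 and 4.50 in glands, 4.87, 4.67 and 4.97 in EGFNWR and 3.66, 4.20 and 4.11 in ER organoids. The chief arrays were the 3 highest of the 13, and chief c was again the lowest of them. Chief minus parietal was 1.99 (SE 0.55, adjusted p = 0.348 in limma) with all arrays, and 2.59 (SE 0.30, adjusted p = 0.007) without chief c. Chief minus glands was 2.39 (SE 0.55, adjusted p = 0.133 in limma) with all arrays, and 3.00 (SE 0.30, adjusted p = 0.0134) without chief c. In the fit of 13 arrays, chief c included, it was the same 2.39 (SE 0.46, adjusted p = 0.0138 in limma), where 6.46% of all genes passed. EGFNWR organoids were lower than chief cells (-2.37, SE 0.41, adjusted p = 0.000854 in limma). ER minus EGFNWR was -0.85 (SE 0.16, adjusted p = 0.0107), and 0.269 in the fit of 13 arrays. Levels were below the array medians in both media and on both glands arrays. The sizes of the differences that involve organoids or glands are therefore uncertain.

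**Figure D3:**
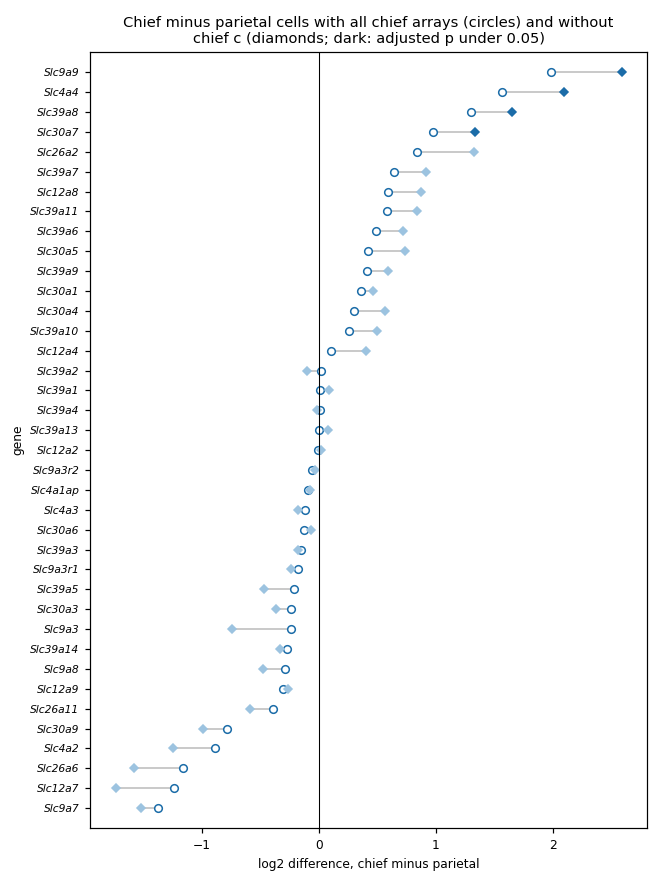
Chief minus parietal differences (log2) of 38 members above the median of array medians in either group, with all 3 chief arrays (circles) and without chief c (diamonds; dark where the adjusted p was under 0.05). Slc9a9 moves from 1.99 to 2.59 and Slc4a4 from 1.57 to 2.10 when chief c is left out, and both then pass with Slc39a8 and Slc30a7. Chief c was chosen for its likeness to the parietal arrays, so these passes are descriptive only.

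Slc9a3 encodes NHE3, the exchanger through which absorbing epithelia take up sodium. It read 8.59, 7.25 and 8.04 in EGFNWR organoids and 4.94, 6.09 and 4.52 in ER organoids. The media did not overlap, and 2 of the 3 ER arrays lay below the array medians. ER minus EGFNWR was -2.78 (SE 0.45; limma adjusted p = 0.00732), a size that is uncertain for the same reason, and the adjusted p was 0.0855 in the fit of 13 arrays. Its level was 7.58, 7.73 and 9.14 in chief cells, 8.60 and 8.18 in parietal cells, and 8.93 and 4.31 on glands a and b. The glands arrays lie near opposite ends of the range of all 13, and the chief minus glands difference moved from 1.53 (SE 1.16, adjusted p = 0.543 in limma) to 3.84 (SE 0.59, adjusted p = 0.0399) without glands a, and turned to -0.78 (SE 0.59, adjusted p = 0.957) without glands b. The chloride channel Cftr fell in the same medium comparison by 3.35 on the log2 scale (-3.35, SE 0.59, adjusted p = 0.00893), from 8.91, 8.81 and 8.14 to 5.20, 6.61 and 3.99.

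Slc9a8, an exchanger of the Golgi and the apical membrane, held a narrow range of 8.92 to 10.01 over all arrays. It read 9.30, 9.48 and 9.28 in EGFNWR and 8.94, 9.06 and 8.92 in ER medium, a difference of -0.38 (SE 0.10, adjusted p = 0.0309 in limma). The scaffolds NHERF1 and NHERF2, which hold NHE3 and CFTR at the membrane, went opposite ways between media. Slc9a3r1 rose from 9.67, 9.86 and 9.83 to 10.45, 10.18 and 10.46 (0.58, SE 0.11, adjusted p = 0.0119 in limma). Slc9a3r2 fell from 8.58, 8.71 and 8.47 to 8.16, 8.30 and 7.96 (-0.45, SE 0.12, adjusted p = 0.0359). Neither scaffold's arrays overlapped between media. The Slc9a8 and Slc9a3r2 calls were lost without EGFNWR a, EGFNWR b, ER a or ER c, with adjusted p-values of 0.0762 to 0.122, and the Slc9a3r1 call without EGFNWR a or ER a (0.052 and 0.0518). Both scaffolds were lower in EGFNWR organoids than in chief cells, by -0.34 (SE 0.13, adjusted p = 0.0487 in limma) for Slc9a3r1 and -0.79 (SE 0.14, adjusted p = 0.00116) for Slc9a3r2. The first of these rests near the threshold and was lost on leaving out any array except ER b or chief b, with adjusted p-values of 0.0578 to 0.159, with median centring (-0.21, adjusted p = 0.281 in limma) and in the fit of 6 arrays (0.12). Slc9a5 stayed below the array medians on all arrays.

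Cation-chloride cotransporters set cell chloride and volume. Slc12a2, the sodium-potassium-chloride cotransporter NKCC1, was high and even, at 10.75 to 11.55 on the 13 arrays. Glands were its lowest group (10.95 and 10.75), and chief and parietal cells each exceeded them by 0.60, with adjusted p-values of 0.189 and 0.136 in limma. Its ER minus EGFNWR difference was -0.23 (SE 0.18, adjusted p = 0.445). Slc12a7, the potassium-chloride cotransporter KCC4, read 9.88, 8.50 and 10.68 in chief cells, 10.99 and 10.86 in parietal cells and 10.40 and 10.06 in glands. It read 8.80, 8.77 and 9.01 in EGFNWR and 9.51, 9.40 and 9.66 in ER organoids. Parietal arrays were the highest, and all ER arrays lay above all EGFNWR arrays. The rise in ER medium was 0.66 (SE 0.11; 1.58-fold; limma adjusted p = 0.00756), and its adjusted p was 0.396 in the fit of 13 arrays. Chief minus parietal was -1.24 (SE 0.54, adjusted p = 0.416).

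Slc12a8, a less studied member, read 8.47, 8.46 and 7.63 in chief cells, 7.53 and 7.66 in parietal cells and 8.21 and 7.65 in glands. Organoids read 9.60, 9.30 and 9.16 in EGFNWR and 7.43, 7.92 and 7.41 in ER medium. The EGFNWR arrays were the 3 highest of the 13, and the ER arrays lay within or just below the range of the first experiment. EGFNWR minus chief was 1.17 (SE 0.25, adjusted p = 0.00275 in limma), and ER minus EGFNWR was -1.77 (SE 0.17; 3.40-fold; adjusted p = 0.00446). Slc12a4, the potassium-chloride cotransporter KCC1, was higher in EGFNWR organoids than in chief cells by 1.12 (SE 0.27, adjusted p = 0.00641 in limma). Slc12a9 was higher by 0.62 (SE 0.12, adjusted p = 0.0016). Slc12a3 was lower (-0.48, SE 0.17, adjusted p = 0.0406) at levels below the array medians, and its call was lost without chief b, chief c, parietal a, parietal b, ER b or any EGFNWR array (adjusted p of 0.0537 to 0.133), with quantile normalization (-0.25, adjusted p = 0.202 in limma), with median centring (-0.34, 0.13) and in the fit of 6 arrays (0.0792). Slc12a1 and Slc12a5 stayed below the medians and passed no test.

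Of the 10 Slc30a genes, Slc30a1, Slc30a4, Slc30a5, Slc30a6, Slc30a7 and Slc30a9 were above the median on every array, Slc30a8 and Slc30a10 on none, and 1 of the 10, Slc30a5, passed between media. Slc30a5 (ZnT5), which supplies zinc to enzymes in the early secretory pathway, read 9.30, 9.30 and 9.05 in EGFNWR and 8.38, 8.47 and 8.12 in ER organoids. The media did not overlap, and the difference was -0.89 (SE 0.13; 1.86-fold; limma adjusted p = 0.005). In chief cells it read 8.85, 8.56 and 7.77, and EGFNWR organoids exceeded these by 0.82 (SE 0.23, adjusted p = 0.013). Its usual partner Slc30a6 (ZnT6) read 7.89, 7.95 and 8.09 in EGFNWR and 7.75, 7.95 and 8.17 in ER medium, with overlapping arrays and no call. Slc30a7 (ZnT7), an exporter of the Golgi, read 9.39, 9.57 and 8.41 in chief cells and 8.08 and 8.20 in parietal cells. Chief minus parietal was 0.98 (SE 0.33, adjusted p = 0.352 in limma), and 1.34 (SE 0.18, adjusted p = 0.00961) without chief c, the array nearest the parietal ones.

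Slc30a9 had the opposite order, at 9.70 and 9.53 in parietal cells and 8.92, 8.32 and 9.22 in chief cells. Its chief minus parietal difference was -0.79 (SE 0.27, adjusted p = 0.357 in limma). Parietal minus glands was 0.90 (SE 0.30, adjusted p = 0.149 in limma), with an adjusted p of 0.0295 in the fit of 13 arrays. Slc30a1, the exporter of the plasma membrane, read 6.94, 7.01 and 6.83 in EGFNWR and 6.70, 6.92 and 6.89 in ER organoids, a difference of -0.09 (SE 0.10, adjusted p = 0.614). Its media overlapped, while Mt1 and Mt2, which bind zinc in the cytosol, both fell. Mt1 went from 11.74, 11.69 and 11.43 to 10.03, 10.49 and 10.38 (-1.32, SE 0.15, adjusted p = 0.00446 in limma), and Mt2 from 12.78, 12.78 and 12.42 to 10.50, 11.73 and 10.87 (-1.63, SE 0.29, adjusted p = 0.00933). Slc30a8 was lower in EGFNWR organoids than in chief cells (-0.48, SE 0.16, adjusted p = 0.0295), at 3.34 to 4.17 and thus below the array medians. That call was lost without chief b, chief c or any EGFNWR array (adjusted p of 0.0506 to 0.1), with quantile normalization (-0.28, adjusted p = 0.121 in limma), with median centring (-0.34, 0.0859) and in the fit of 6 arrays (0.0826). Slc30a2, Slc30a3, Slc30a4 and Slc30a10 passed no test.

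Of the 14 zinc importers 5 fell and 2 rose in ER medium (35.7% and 14.3%, beside 10.1% and 9.13% of all genes), while of the 7 Slc9a genes 4 fell and 1 rose. Slc39a8 (ZIP8), which carries zinc and manganese, read 7.72, 7.28 and 7.96 in EGFNWR and 5.88, 6.69 and 5.50 in ER organoids. No ER array reached the EGFNWR range, and the difference was -1.63 (SE 0.31; 3.10-fold; limma adjusted p = 0.0108). In the first experiment it read 6.26, 6.86 and 5.50 in chief cells, 4.99 and 4.83 in parietal cells and 5.15 and 5.15 in glands. All chief arrays were above the parietal and glands arrays. Chief minus parietal was 1.30 (SE 0.36, adjusted p = 0.348 in limma), and 1.65 (SE 0.24, adjusted p = 0.0119) without chief c. The parietal and glands arrays lay below the array medians, so these sizes are uncertain. EGFNWR minus chief was 1.45 (SE 0.34, adjusted p = 0.00579). Slc39a14 (ZIP14), the close relative that also carries iron, read 8.81, 8.15 and 8.66 in chief cells, 7.18, 7.22 and 7.20 in EGFNWR and 6.19, 6.62 and 6.17 in ER organoids. Its groups did not overlap: EGFNWR minus chief was -1.34 (SE 0.19, adjusted p = 0.000223), and ER minus EGFNWR was -0.87 (SE 0.13, adjusted p = 0.00604).

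Slc39a7 and Slc39a13, importers of inner membranes, fell in ER medium, whereas Slc39a9 (ZIP9), of the Golgi, differed by 0.10 (adjusted p = 0.539 in limma). Slc39a7 (ZIP7), which releases zinc from the endoplasmic reticulum, read 9.63, 9.70 and 9.30 in EGFNWR and 8.89, 8.83 and 8.60 in ER organoids (-0.77, SE 0.14, adjusted p = 0.00899 in limma; 0.0564 in the fit of 13 arrays). Slc39a13 (ZIP13), of the Golgi and vesicles, went from 8.87, 8.92 and 8.40 to 7.76, 8.00 and 7.55 (-0.96, SE 0.17, adjusted p = 0.00941). Neither gene's arrays overlapped between media, and neither passed between EGFNWR organoids and chief cells (adjusted p = 0.0575 and 0.934). At the plasma membrane, Slc39a10 (ZIP10) went from 8.79, 8.82 and 8.57 to 7.76, 8.04 and 7.93 (-0.82, SE 0.11, adjusted p = 0.00493). It was higher in EGFNWR organoids than in chief cells by 1.09 (SE 0.22, adjusted p = 0.00191). Its partner Slc39a6 (ZIP6) did not pass between media, at 6.66 to 6.88 in EGFNWR and 6.71 to 7.02 in ER medium, and exceeded chief cells by 0.98 (SE 0.27, adjusted p = 0.0122 in limma).

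Slc39a4 and Slc39a11 were the importers that rose. Slc39a4 (ZIP4), the carrier by which the intestine takes up dietary zinc, read 9.07, 8.45 and 8.84 in chief cells, 8.75 and 8.81 in parietal cells and 8.91 and 9.66 in glands. It read 10.26, 10.44 and 10.42 in EGFNWR and 11.14, 11.14 and 10.74 in ER organoids. All organoid arrays lay above all arrays of the first experiment, and all ER above all EGFNWR arrays. EGFNWR minus chief was 1.59 (SE 0.21; 3.00-fold; limma adjusted p = 0.000134), and ER minus EGFNWR was 0.63 (SE 0.13, adjusted p = 0.0156). Without EGFNWR a or ER a the latter was 0.58 and 0.57, with adjusted p-values of 0.0663 and 0.062. Slc39a11 (ZIP11) rose in ER medium by 0.53 (SE 0.12, adjusted p = 0.0242), from 9.42 to 9.56 up to 9.83 to 10.25. That call was lost without EGFNWR a, EGFNWR b or ER a, with differences of 0.50 to 0.56 and adjusted p-values of 0.0645 to 0.0876.

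Slc39a1 (ZIP1) stood at 8.55 to 9.13 on the 7 arrays of the first experiment and 9.94 to 10.26 on the organoid arrays. EGFNWR organoids exceeded chief cells by 1.31 (SE 0.16, adjusted p = 9.96e-05 in limma), and the media overlapped (-0.02, SE 0.11, adjusted p = 0.918). Its second probeset, at 7.77 to 8.79 in the first experiment and 9.74 to 10.08 in organoids, showed the same split. Slc39a9 (ZIP9) was lower in EGFNWR organoids than in chief cells, at 9.42 to 9.49 against 9.72 to 10.31 (-0.63, SE 0.16, adjusted p = 0.00712). Slc39a2, Slc39a3, Slc39a5 and Slc39a12 passed no test, the last below the array medians on every array.

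**Figure D4:**
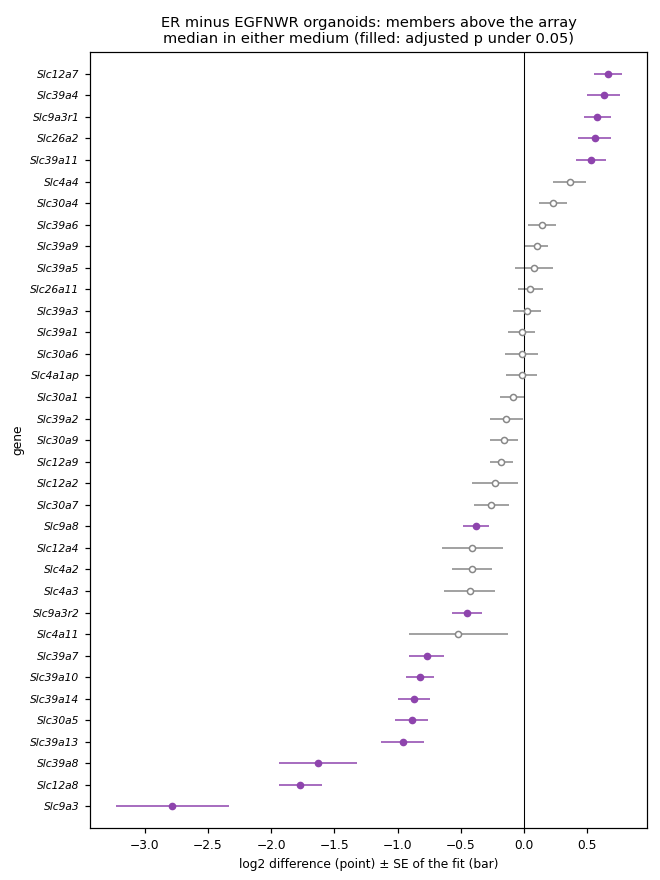
ER minus EGFNWR differences (log2; bars: SE of the fit) of 35 members above the median of array medians in either medium, filled where the adjusted p was under 0.05. Zinc carriers Slc39a8, Slc39a13, Slc30a5, Slc39a14, Slc39a10 and Slc39a7 lie between -1.63 and -0.77, and 5 members lie between 0.53 and 0.66.

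**Figure D5:**
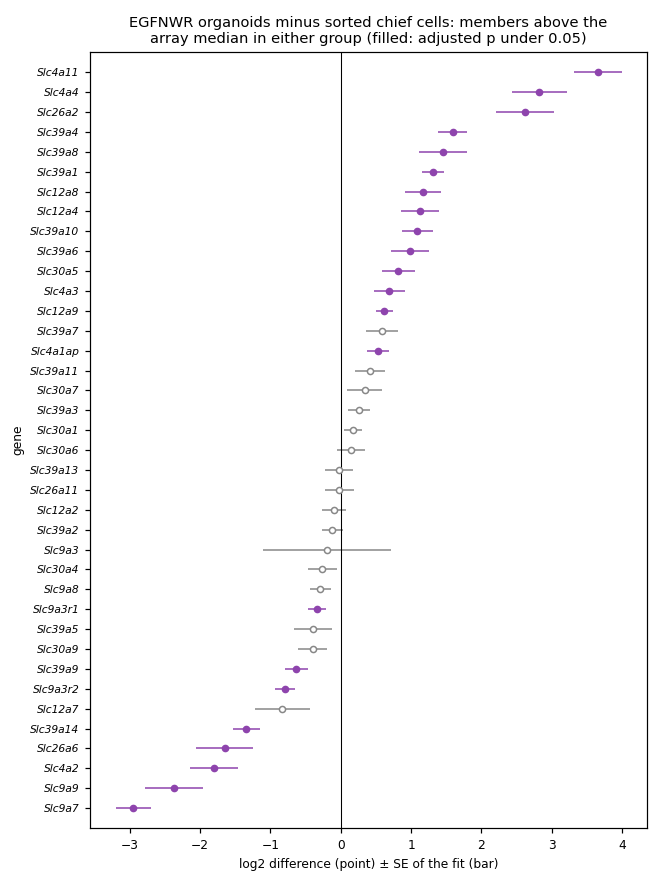
EGFNWR organoids minus sorted chief cells (log2; bars: SE of the fit) for 38 members above the median of array medians in either group, filled where the adjusted p was under 0.05. Slc4a11, Slc4a4 and Slc26a2 lie at 3.65, 2.82 and 2.62, and Slc9a7, Slc9a9 and Slc4a2 at -2.95, -2.37 and -1.80.

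Genes that work with these carriers were taken from 7 lists. The counts between media stand beside 9.13% of all genes higher and 10.1% lower in ER medium, and each list is small. Between media, the zinc buffering list had 0 of 6 higher and 2 lower (Mt1 and Mt2), while the zinc-sensing factor Mtf1 did not pass. Of 19 iron and copper genes, 1 was higher and 6 lower in ER medium: transferrin (Trf, -2.65), ceruloplasmin (Cp, -2.71), the iron exporter Slc40a1 (-1.96), the copper pump Atp7b (-1.62), the transferrin receptor Tfrc (-1.03) and Steap3 (-0.49). The copper chaperone Atox1 rose by 0.37. Of 10 acid secretion transporters, 3 rose (Slc9a2 at 1.10, Slc9a4 at 0.52 and the carbonic anhydrase Car2 at 0.73) and 2 fell (Atp4a at -0.83 and Kcnq1 at -0.61). Slc9a2 and Slc9a4 are the plasma membrane sodium/proton exchangers NHE2 and NHE4, and both were higher in ER medium where Slc9a3 was lower. The median differences of these 3 lists were -0.04, -0.01 and 0.04, beside 0.01 over all genes.

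The kinases that switch cation-chloride cotransporters were split between media, with 3 of 9 higher (Stk39, or SPAK, at 0.40, and its helpers Cab39 and Cab39l at 0.63 each) and 2 lower (Wnk2 at -1.15 and Wnk3 at -0.46, the latter below the array medians). Of 7 exchanger partners 2 rose, the kinase Sgk1 by 1.55 and the membrane linker Ezr by 0.47. Of 6 chloride channels and regulators, Clca1 (3.51) and Clcn2 (2.11) rose and Cftr (-3.35) and Clcn3 (-0.73) fell. Of 10 calcium extrusion genes 2 rose, Atp2b4 by 0.90 and Slc8b1 by 0.43. Their medians were 0.10, 0.23, -0.09 and 0.13. Pit cell markers moved with the medium as well: 4 of 4 rose in ER medium, with summed levels of 10.64 to 13.01 in EGFNWR and 13.72 to 14.55 in ER organoids. Of 3 mucous neck cell markers 2 fell and 1 rose, with differences from -4.31 to 1.99. Of 6 chief cell markers 3 fell, with summed levels of 12.78 to 13.08 and 10.64 to 11.76. The part of these cell types in the carrier differences was not tested.

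Over all genes, 24.1% were higher and 16.2% lower in EGFNWR organoids than in chief cells. In the same comparison, 8 of 10 acid secretion transporters were lower and 0 higher, with a median of -2.03. Of the iron and copper genes 6 were higher (31.6%), led by the reductase Cybrd1 (5.93) and Trf (5.81), and 4 lower (21.1%). Of the chloride channels 3 were higher (Ano1 by 3.32, Cftr by 2.69 and Clcn2 by 1.55) and 0 lower. Of the WNK and SPAK kinases 2 were higher and 4 lower, the lowest being Wnk4 (-3.15). Zinc buffering had 1 higher (Mt1, 0.62) and 1 lower (Mt3, -0.91), exchanger partners 1 higher and 1 lower (Sgk1, -2.37), and calcium extrusion 2 higher and 3 lower. Between parietal cells and glands 2 of the 67 listed genes passed, both lower in parietal cells, beside 1.39% of all genes lower. They were Mt2 (-1.77, SE 0.27, adjusted p = 0.0348 in limma) and Ano1 (-3.69, SE 0.58, adjusted p = 0.0353). No listed gene passed for chief cells against parietal cells or glands, where limma called 0 of 67. At an unadjusted p under 0.05, 10 and 7 of the 67 passed, beside 12.1% and 15% of all genes.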

How the data were processed

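RNA of 13 samples was labelled with biotin and hybridised to Affymetrix arrays, 1 sample per array. The authors deposited log2 values for 35556 probesets, made with RMA in Affymetrix Power Tools, per the submitters' processing notes. Their versions were not given in the sources used. Because RMA equalises the arrays' distributions, a shift of most genes together would be hidden, and the number of arrays limits precision. Of the probesets, 21218 had 1 gene symbol in the platform annotation, 1881 had several and 12457 had none. Of the first, 21185 matched the mouse RefSeq table (GRCm38.p6), with 0 symbols updated. The probeset with 1 symbol that was brightest on average over the 13 arrays stood for its gene, giving 18820 genes (for 1386, a choice among several probesets). Of the 59 members, 2 (Slc8a1 and Slc39a1) had a second probeset.

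Sample titles gave the groups. One linear model covered the first experiment (7 arrays), another the organoids (6 arrays), and a model of all 13 arrays gave EGFNWR minus chief. The models were fitted without a block in limma 3.58.1 under R 4.3.3 (lmFit, eBayes). P-values were adjusted over all 18820 genes by Benjamini-Hochberg, with a threshold of 0.05. The fits were tested on simulated data. The members, the 7 companion lists (68 genes, 67 measured) and the 12 marker lists (57 entries, 53 measured) were chosen with earlier results of these data known. Full statistics were set for members past the threshold, up to 6 non-overlapping members with the largest differences where fewer passed, and the 2 brightest of each family. Summed marker levels are log2 of the sum of linear intensities.

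Whether replicate letters pair arrays was checked. In organoids, for equal letters, residuals about the group means had correlations of 0.184, 0.233 and 0.386, higher than for any unequal letters. The labels do not state a pairing. The reported fits have no block, and a blocked value is given for the media where it changes a call. In the first experiment equal letters correlated at 0.263 and 0.11 (chief and parietal), -0.194 and 0.0693 (chief and glands) and 0.0267 (parietal and glands), and between chief and EGFNWR arrays at -0.0957, -0.0485 and 0.0125, and there letters served as names only. Alternatives were quantile normalization once more, median centring, leaving out dim genes, eBayes with trend and robust, other sets of arrays, the replicate block, other probesets, carriers only, and leaving out each array. Promoter windows came from RefSeq (GRCm38.p6).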

Additional observations from a re-analysis of the deposited data

How the results depend on the processing

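All 43 called differences kept their direction under every alternative that could be fitted, and 24 kept their call under all of them. Of 33 uncalled differences, among them those printed with statistics, 30 kept their direction. Several alternatives could not change a direction, because they keep the group means. Among them were eBayes with trend, other sets of arrays and leaving out an array outside the comparison. In the fit of 13 arrays, ER minus EGFNWR stayed at 0.66 for Slc12a7 and -2.78 for Slc9a3. Other probesets could change only the 2 members that have several. Direction was thus tested mainly by normalization, median centring and leaving out arrays of the groups compared. Leaving out 1 array moved Slc9a3 in chief minus glands between -0.78 (without glands b) and 3.84, Slc39a1 in ER minus EGFNWR between -0.09 and 0.07, and Slc39a13 in EGFNWR minus chief between -0.12 and 0.14. With median centring the last 2 turned to 0.04 and 0.12. Counts of members past the threshold moved as follows, with the share of all genes called in brackets. Fitting all 13 arrays at once gave 1 in place of 0 for chief against parietal cells (0.882%), 3 in place of 0 for chief cells against glands (6.46%), 10 in place of 2 for parietal cells against glands (14.4%) and 7 in place of 16 for ER against EGFNWR organoids (9.06%). With the replicate block, which drops chief c, these were 8 (5 higher, 3 lower; 8.77%), 1 (1.18%) and 5 (8.5%) for the first 3, and 18 (23.6%) for the organoids, where Slc4a2 and Slc4a4 were gained. For EGFNWR minus chief the block kept 25 (42%), losing Slc9a3r1 and gaining Slc39a7 (0.59, adjusted p = 0.0125 in limma), and a fit of only the 6 arrays gave 18 (29.5%). Quantile normalization gave 0 in place of 2 for parietal cells against glands (0.579%). Leaving out 1 array gave 0 to 4 for chief against parietal cells (0% to 7.01%), 0 to 1 for chief cells against glands (0.0903% to 2.33%), 0 to 5 for parietal cells against glands (0.0106% to 7.47%), 10 to 16 for the organoid media (10.1% to 18.7%) and 20 to 32 for EGFNWR minus chief (30.1% to 49.9%). Leaving 1 array in a group assumes that it varies like the other groups. Median centring moved the all-gene median of ER minus EGFNWR from 0.01 to 0.07 and its calls from 1719 higher and 1894 lower to 2066 and 1673, with members at 6 higher and 11 lower. The causes were not tested. Without detection calls, signal near or below the array medians limits what can be said of the 19 members that never exceeded them.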
